A study of Mus musculus with 2 samples.

Results

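Interferon beta, the receptor chains for type I and type II interferon, and the enzymes that attach and remove the ubiquitin-like protein ISG15 were examined in the nucleoplasmic RNA of lipid A-treated macrophages. The 9 genes were taken as a list of named symbols: Ifnb1, Ifnar1, Ifnar2, Ifngr1, Ifngr2, Isg15, Uba7, Herc6 and Usp18. All 9 were found among the 55536 genes of the deposited gene tables.

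The material was bone marrow-derived macrophages, which are primary macrophages grown from mouse marrow, of strain C57BL/6J with no genetic change named in the labels. Both libraries came from cells given lipid A, the TLR4-activating part of bacterial lipopolysaccharide, at 100 ng/ml for 50 min, and they are biological replicates 1 and 2 of 1 group with the same donor label. RNA was depleted of ribosomal RNA, with an input of 500 ng for replicate 1 and 1 µg for replicate 2. The labels name the nucleoplasm in one place and the nucleus in another, and give neither sex nor age. An untreated library was not analysed here, so no level shows what lipid A changed, and no p-value is given.

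Interferon beta is a secreted cytokine that macrophages make after TLR4 signals through the adaptor TRIF to the factor IRF3. It binds IFNAR1 and IFNAR2 on the same and neighbouring cells, and the kinases JAK1 and TYK2 then activate transcription factors that bind interferon-stimulated response elements. ISG15 is one product of that response: UBA7 activates it, UBE2L6 carries it, HERC6 is the main mouse ligase that attaches it to proteins, and USP18 removes it and also limits signalling at IFNAR2.

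Sequencing depth in the gene tables was 10395300 expected counts for replicate 1 and 20515408 for replicate 2. Levels between genes are compared in TPM, which is counts per effective transcript length scaled to a total of 1000000 per library. Of all TPM, nuclear protein-coding genes made up 26.2% in replicate 1 and 17.0% in replicate 2, so TPM of most such genes was lower in replicate 2. The median log2 ratio of TPM, replicate 2 over replicate 1, was -0.69 over all genes with counts in both libraries whose mean TPM was 1 or more, and ratios below are given relative to it. In a further deposited quantification, made from the reads, nuclear protein-coding genes made up 23.1% and 5.28% of TPM, and this median was -2.26. TPM from the reads was thus lower in replicate 2 for most genes. Levels are also given as TPM rescaled so that nuclear protein-coding genes alone sum to 1000000. All 10 macrophage markers examined had at least 10 TPM in both libraries. Of 5 markers each for plasmacytoid dendritic cells, T and NK cells, B cells, erythroid cells and stroma, none reached 1 TPM in both libraries, and of 5 neutrophil markers S100a8 did, at 1.67 and 1.27 TPM. In the quantification made from the reads the T cell marker Cd3d also did, at 10.4 and 1.05 TPM, while transcript alignments gave it 0 and 3 expected counts. The summed TPM of the plasmacytoid dendritic cell markers, a cell type known for abundant interferon, was 2.56 in replicate 1 and 1.24 in replicate 2. In bulk RNA, fewer cells of a type and less RNA per cell cannot be told apart.

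All 9 genes were detected at 1 TPM or more in both libraries, a level that 38.8% of protein-coding genes reached. Of the 9 genes, 8 reached 10 TPM in both libraries, and 13.3% of protein-coding genes did so. The exception was Usp18. In the quantification made from the reads, Ifngr2 and Uba7 were also below 10 TPM in replicate 2, at 6.51 and 7.47 TPM. The median level of the 9 genes was 46.3 ± 7.77 TPM (SD, n = 2 libraries), with 51.8 TPM in replicate 1 and 40.9 TPM in replicate 2. Protein-coding genes that reached 1 TPM in both libraries had a median of 9.01 TPM in replicate 1 and 5.82 TPM in replicate 2.

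**Figure D1:**
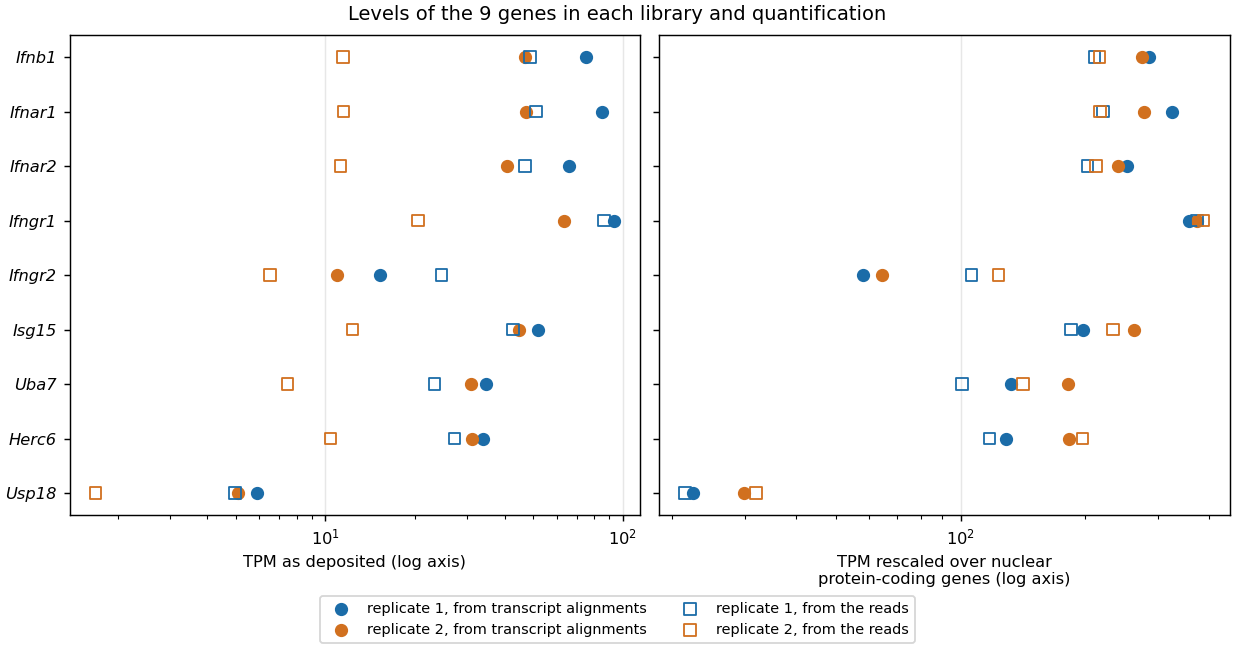
Level of each gene on log axes, as deposited TPM (left) and as TPM rescaled over nuclear protein-coding genes (right). Filled circles are the quantification from transcript alignments and open squares the one from the reads, blue for replicate 1 and orange for replicate 2. Ifngr1 had the highest and Usp18 the lowest rescaled level in both libraries and quantifications, and rescaling brings the libraries closer together for the ligand and the 4 receptor genes.

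Ifnb1, the ligand (ENSMUSG00000048806.4, mm10 chr4:88522025-88522774, minus strand, 1 exon), had 74.9 TPM in replicate 1 and 46.7 TPM in replicate 2 (mean 60.8 ± 20.0, SD, n = 2). These values rest on 446 expected counts (95% exact Poisson interval 406 to 489) and 892 (834 to 953). Such intervals cover only counting error, and without molecular identifiers several reads may stem from 1 molecule. The level was higher in replicate 1 as TPM, but rescaled TPM was nearly the same, at 286 in replicate 1 and 274 in replicate 2. The log2 ratio between the libraries was 0.01 above the median of all genes. By mean TPM Ifnb1 stood at rank 639 of 22028 protein-coding genes, close to the receptor chains Ifnar1 and Ifnar2 to which its product binds.

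The other interferons were near or at 0. Of 20 further interferon genes, 16 had 0 expected counts in both libraries, among them Ifng, the ligand of the Ifngr1 and Ifngr2 receptor, and Ifnl2 and Ifnl3, which encode lambda interferons. A count of 0 allows up to 0.290 CPM (counts per 1000000 counts in gene rows) in replicate 1 and 0.146 CPM in replicate 2, taking 3 counts as the limit. Ifnk, an interferon known from keratinocytes, was the highest, with 2.44 TPM in replicate 1 on 16 counts, and 1.00 TPM in replicate 2 on 21 counts. Ifna2 followed with 5 counts in each library. Ifnb1 lies with 16 of these interferon genes within 358 kb on chromosome 4, and none of the 16 had more than 5 expected counts in either library. From the reads, Ifna16, named after its values were seen, had 10.1 and 9.68 estimated counts.

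The sequence before the Ifnb1 start is shown because this stretch is the textbook example of a virus- and TLR-inducible promoter, and that before Isg15 because Isg15 is a textbook interferon-stimulated gene. Both are from RefSeq on GRCm38.p6, minus strand, and run from base -250 to base -51 before the start that RefSeq gives, which for Ifnb1 lies upstream of the start in the gene coordinates above, at chr4:88522845-88523044 for Ifnb1 and chr4:156200869-156201068 for Isg15. Capitals mark matches, on either strand, to 3 motifs, namely GGG, any 5 bases and CC for NF-kB, GAAA, any 2 bases and GAAA for the core of the interferon-stimulated response element, and TATAAA for the TATA box.
Ifnb1 promoter: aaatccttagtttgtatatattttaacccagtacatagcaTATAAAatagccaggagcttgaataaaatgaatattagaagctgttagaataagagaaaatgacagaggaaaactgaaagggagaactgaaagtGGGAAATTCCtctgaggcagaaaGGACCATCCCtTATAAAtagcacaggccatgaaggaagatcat
Isg15 promoter: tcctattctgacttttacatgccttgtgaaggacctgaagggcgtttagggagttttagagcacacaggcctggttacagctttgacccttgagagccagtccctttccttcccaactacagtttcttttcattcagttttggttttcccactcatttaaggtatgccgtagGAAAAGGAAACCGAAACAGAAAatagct

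In the Ifnb1 window GGGAAATTCC lay at -116 to -107, and a second NF-kB match, on the opposite strand, lay at -93 to -84. A TATAAA lay at -82 to -77, and another began at -210. In the Isg15 window 3 overlapping matches to the response element core ran without a gap from -78 to -57. Of 9 genes, 8 were matched in the promoter table, and Usp18 was not. Among the 8 windows of 250 bases the response element core occurred in Isg15 only, whereas 2.98% of all 32851 windows held it. TATAAA occurred in Ifnb1 only, against 12.4% of all windows. The NF-kB letters occurred in 4 of the 8 windows, those of Ifnb1, Ifngr1, Ifngr2 and Herc6, and in 45.8% of all windows. A match is a run of letters and not a shown binding site, and where a motif is missing only these letters are missing from this window.

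As gene TPM, summed over all isoforms, the type I receptor chains had levels near that of their ligand. Their long coding isoforms alone lay below Ifnb1, with 42.3 and 25.45 TPM for Ifnar1-201 and 30.08 and 17.99 TPM for Ifnar2-201. Ifnar1 (ENSMUSG00000022967.13, mm10 chr16:91485238-91507441, plus strand), the chain that recruits TYK2, had 85.0 TPM in replicate 1 and 47.3 TPM in replicate 2 (mean 66.2 ± 26.7). Ifnar2 (ENSMUSG00000022971.18, chr16:91372783-91405589, plus strand), the chain with the higher affinity for interferon beta and the docking site of JAK1, had 66.1 TPM in replicate 1 and 40.9 TPM in replicate 2 (mean 53.5 ± 17.9). Both chains were lower as TPM in replicate 2, with log2 ratios of -0.15 for Ifnar1 and -0.00 for Ifnar2 relative to all genes. Rescaled TPM of Ifnar1 was 325 in replicate 1 and 278 in replicate 2, and that of Ifnar2 was 253 and 240. The ratio of Ifnar1 to Ifnar2 in TPM was 1.29 in replicate 1 and 1.16 in replicate 2, so the chains differed by less than 1.5-fold in each library.

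The type II receptor chains were unequal. Ifngr1 (ENSMUSG00000020009.13, mm10 chr10:19591949-19610229, plus strand), the chain that binds interferon gamma, had 93.6 TPM in replicate 1 and 63.6 TPM in replicate 2 (mean 78.6 ± 21.2). Ifngr2 (ENSMUSG00000022965.8, chr16:91547072-91565623, plus strand), the signalling partner that brings JAK2, had 15.2 TPM in replicate 1 and 11.0 TPM in replicate 2 (mean 13.1 ± 3.0). Ifngr1 was the highest of the 9 genes and Ifngr2 the second lowest in both libraries. Ifngr1 stood 6.16-fold above Ifngr2 in TPM in replicate 1 and 5.80-fold in replicate 2. In the quantification made from the reads the ratio was 3.52 and 3.14, so its direction was the same and its size smaller.

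Ifnar2, Ifnar1 and Ifngr2 lie in 1 cluster on chromosome 16 with Il10rb, the shared chain of the receptors for interleukin 10 and interferon lambda, all on the plus strand. Counted from the start of Ifnar2, Il10rb began at 33.4 kb, Ifnar1 at 112 kb and Ifngr2 at 174 kb. Il10rb had 162 TPM in replicate 1 and 101 TPM in replicate 2, above each of the receptor chains. Levels thus differed among neighbours, with Ifngr2 the lowest of the 4 in both libraries. The annotated read-through gene Gm21970, which joins Ifnar2 to Il10rb, had 0 expected counts in replicate 1 and 1.91 in replicate 2, so few counts were assigned across that border.

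**Figure D2:**
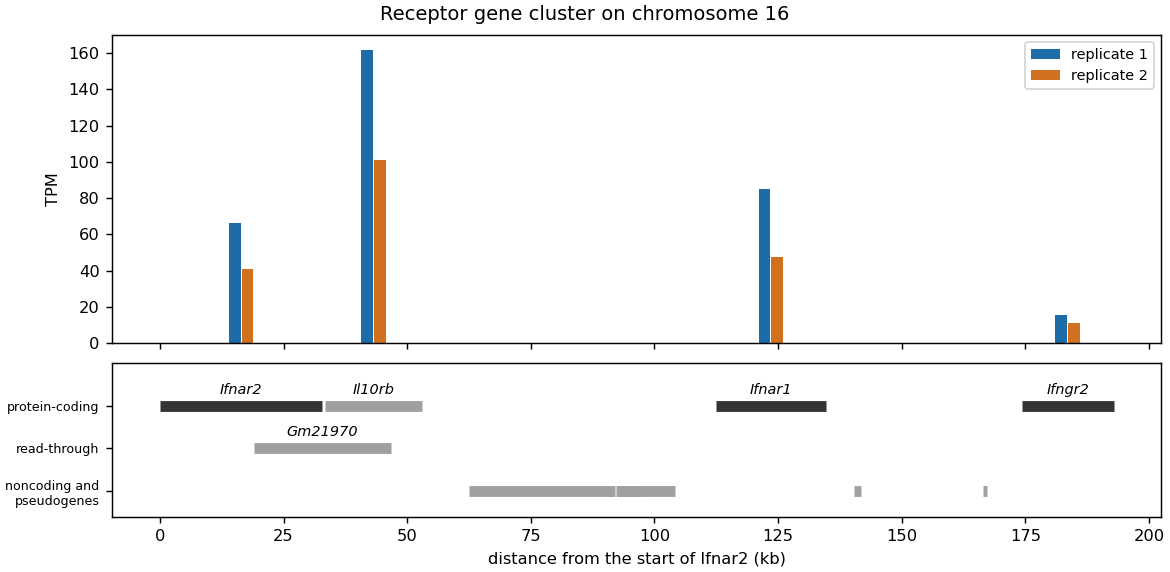
Receptor gene cluster on chromosome 16 by distance from the start of Ifnar2 in kb, with TPM of the 4 protein-coding receptor genes (bars, top, from 0; blue replicate 1, orange replicate 2) above the extent of each gene (bottom; black for the receptor chains described here, grey for other genes). Il10rb was the highest at 162 and 101 TPM and Ifngr2 the lowest at 15.2 and 11.0 TPM.

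Among 8 other genes of the class II cytokine receptor family, 4 had at least 1 TPM in both libraries, beside 38.8% of protein-coding genes. Il10ra, the ligand-binding chain for interleukin 10, had 103 TPM in replicate 1 and 65.1 TPM in replicate 2. Il20rb had 3.36 and 1.79 TPM, and F3, which encodes tissue factor, had 1.92 and 1.36 TPM. In the quantification made from the reads Il20rb and F3 were below 1 TPM in replicate 2, at 0.734 and 0.364 TPM. Ifnlr1, the specific chain for interferon lambda, had 0 expected counts in both libraries, as had Il20ra and Il22ra1. From the reads Ifnlr1 had 161 and 96.6 estimated counts, or 1.31 and 0.139 TPM, so the quantifications differed on it. Il22ra2, a secreted receptor for interleukin 22, had 0 counts in replicate 1 and 1 in replicate 2.

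Isg15 (ENSMUSG00000035692.6, mm10 chr4:156199424-156200818, minus strand), the modifier itself, had 51.8 TPM in replicate 1 and 44.8 TPM in replicate 2 (mean 48.3 ± 5.0). The values rest on 312 expected counts (interval 278 to 349) and 864 (807 to 924). As TPM the libraries lay close together, but rescaled TPM was 198 in replicate 1 and 263 in replicate 2, and CPM was 30.2 and 42.2. In TPM, the ratio of Ifnb1 to Isg15 was 1.45 in replicate 1 and 1.04 in replicate 2, and from the reads 1.14 and 0.928, so its direction turned in replicate 2.

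Uba7 (ENSMUSG00000032596.14, mm10 chr9:107975505-107984060, plus strand), the activating enzyme, had 34.7 TPM in replicate 1 and 30.9 TPM in replicate 2 (mean 32.8 ± 2.64). Herc6 (ENSMUSG00000029798.11, chr6:57581000-57664632, plus strand), the ligase, had 33.8 TPM in replicate 1 and 31.1 TPM in replicate 2 (mean 32.5 ± 1.85). As gene TPM, which sums all isoforms, the first and last enzymes of the attachment pathway had overlapping levels. The Uba7 to Herc6 ratio was 1.03 in replicate 1 and 0.994 in replicate 2, and from the reads 0.856 and 0.717. The single protein-coding isoform of each gene held only part of that TPM. Uba7-201 had 5.83 and 2.79 TPM, below Herc6-201 with 10.4 and 5.92 TPM. The processed transcript Gm45193 overlaps Herc6 on the same strand and had 5.16 and 84.2 expected counts, and the read-through gene Gm20661 overlaps the end of Uba7 with 25.1 and 31.4. From the reads Gm45193 had 193 and 433 estimated counts, and Gm20661 had 50.5 and 45.4. Reads in the shared stretches cannot be told apart with certainty.

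Usp18 (ENSMUSG00000030107.10, mm10 chr6:121245906-121270917, plus strand), the protease, was the lowest of the 9 genes. It had 5.88 TPM in replicate 1 on 88 expected counts (interval 70.6 to 108) and 5.08 TPM in replicate 2 on 235 (206 to 267), with a mean of 5.48 ± 0.566 TPM. Isg15 stood 8.82-fold above Usp18 in TPM in replicate 1 and 8.81-fold in replicate 2, and from the reads 8.60-fold and 7.33-fold. The noncoding gene Gm44148, on the strand opposite to Usp18, had 0 expected counts in both.

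Ube2l6, the ISG15-carrying enzyme, was named after its values were seen. It had 27.0 TPM in replicate 1 and 13.2 TPM in replicate 2. Its log2 ratio between the libraries was -0.34 relative to all genes, below that of each of the 4 ISG15 genes described here. From the reads the ratio of Ube2l6 was 0.20, so its sign turned. It was still below the ratios of those 4 genes, of which Isg15 had the lowest at 0.47. All 24 listed ubiquitin and ubiquitin-like pathway genes, Ube2l6 among them, reached 1 TPM in both libraries, beside 38.8% of protein-coding genes. Their median was 20.4 TPM in replicate 1 and 12.9 TPM in replicate 2. The highest were Fau, which encodes a ubiquitin-like protein fused to a ribosomal protein, at 87.8 and 51.6 TPM, and the ligase Trim25 at 89.5 and 45.4 TPM. The lowest were the carrier enzyme Ube2e2 at 4.85 and 2.96 TPM and the ligase Herc3, a relative of Herc6, at 4.17 and 1.87 TPM. Of the 24, 6 had a log2 replicate ratio above the median of all genes. The share was 52.6% of the 9160 protein-coding genes with counts in both libraries whose mean TPM was 1 or more.

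In rescaled TPM the 9 genes ran from Ifngr1 through Ifnar1, Ifnb1, Ifnar2, Isg15, Uba7, Herc6 and Ifngr2 to Usp18. Neighbours in that order whose ranges over the 2 libraries overlapped were Ifnar1 with Ifnb1, Ifnar2 with Isg15, and Uba7 with Herc6. The ranges of the other 5 neighbouring pairs did not overlap. With the quantification made from the reads, Ifnar1 and Ifnb1 no longer overlapped, while Ifnb1 with Ifnar2 and Herc6 with Ifngr2 did. As deposited TPM the ranges of the first 4 neighbouring pairs all overlapped.

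The ISG15 genes had higher replicate ratios than the ligand and the receptors, a difference that was described and not tested. Relative to all genes, the log2 ratio of TPM, replicate 2 over replicate 1, was 0.48 for Isg15, 0.53 for Uba7, 0.58 for Herc6 and 0.48 for Usp18, with a median of 0.50 over these 4 genes. Over the 5 ligand and receptor genes the median was 0.01, with 0.13 for Ifngr1 and 0.22 for Ifngr2 as the highest. The 75th percentile of all genes was 0.35 and the 90th 0.74, so the 4 ISG15 genes lay between those marks. Such ratios were not particular to them. Socs3 had 0.77, Socs1 0.83, Traf3 0.48 and the macrophage marker Lyz2 0.74. List medians were 0.30 over the 10 macrophage markers and -0.10 over the 24 ubiquitin and ubiquitin-like pathway genes. Over the genes listed below they were 0.28 for the 12 of receptor signalling and 0.13 for the 18 from TLR4 to Ifnb1. Of the 9 genes, 7 lay above the median of all genes, as did 52.6% of the 9160 protein-coding genes with a mean TPM of 1 or more. None of the 9 lay more than 2-fold from that median. Of the 11380 genes with counts in both libraries whose mean TPM was 1 or more, 9.90% did. Which of culture, RNA input or library preparation moves with this difference cannot be told apart with 1 library each.

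The ratio of Herc6 depended on the scale. As CPM, Herc6 had 134 in replicate 1 and 114 in replicate 2, and its log2 ratio relative to all genes was -0.16, against 0.58 in TPM. CPM left the ratios of Isg15, Uba7 and Usp18 at 0.56, 0.48 and 0.51. The mean effective length assigned to Herc6 was 3664 nt in replicate 1 and 2215 nt in replicate 2. Without the short isoform Herc6-203, Herc6 had 33.8 TPM in replicate 1 and 19.2 TPM in replicate 2.

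**Figure D3:**
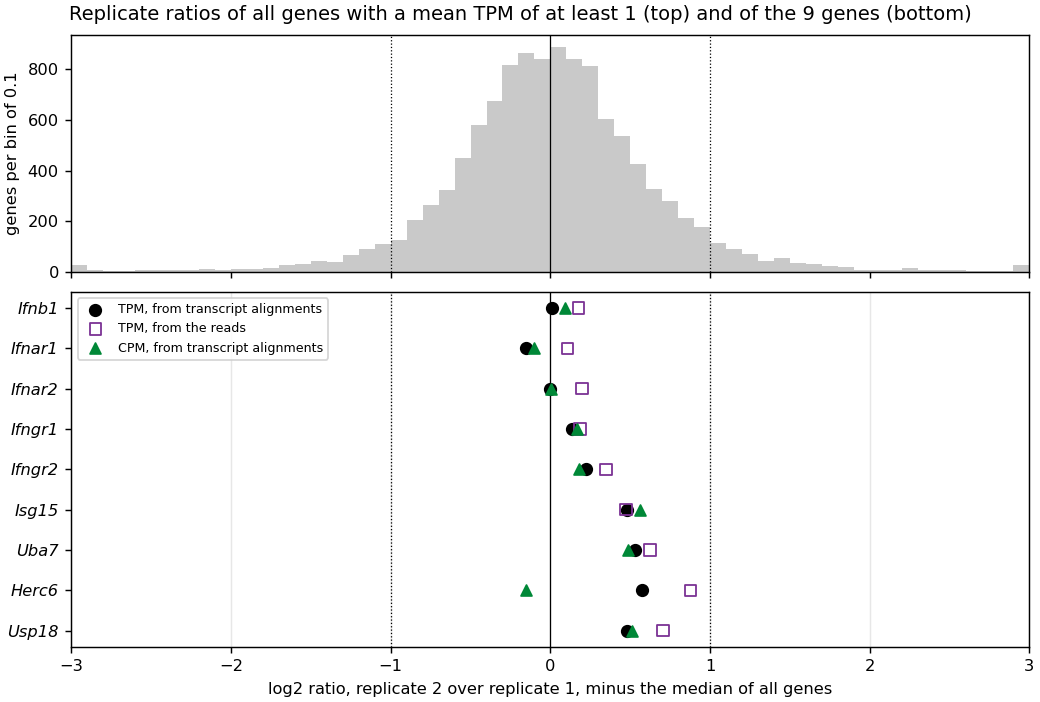
Log2 ratio, replicate 2 over replicate 1, minus the median of all genes, for all genes with counts in both libraries whose mean TPM was 1 or more (grey bars, top; the outermost bars also hold all genes beyond them) and for the 9 genes (bottom). Black circles are TPM from transcript alignments, open squares TPM from the reads and green triangles CPM, and dotted lines mark 2-fold. Isg15, Uba7 and Usp18 lie right of the median on each scale, and Herc6 lies at 0.58 in TPM but at -0.16 in CPM.

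Nuclear RNA holds transcripts that are still being spliced, and reads from an intron count for a gene only where an annotated isoform contains that intron. The isoform tables show how the counts of each gene were divided among its annotated isoforms. Ifnb1 and Isg15 have 1 annotated isoform each, and all 5 isoforms of Ifnar2 are annotated as protein-coding. The other 6 genes have isoforms of classes not annotated as protein-coding, and their share of the gene's TPM ranged widely.

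Uba7 had the largest such share, 83.2% in replicate 1 and 91.0% in replicate 2. Its single protein-coding isoform of 15, Uba7-201, held 16.8% in replicate 1 and 9.0% in replicate 2, with a retained-intron class at 50.8% and 70.1%. No isoform led clearly: Uba7-214, annotated for nonsense-mediated decay, led replicate 1 with 18.5% and Uba7-202, a retained-intron isoform, led replicate 2 with 18.2%. The other isoforms with at least 5% in any library or quantification, Uba7-203, Uba7-204, Uba7-206, Uba7-207, Uba7-209, Uba7-210, Uba7-211, Uba7-212 and Uba7-215, each held between 0% and 13.1% in the alignments. For Herc6 the share was 69.3% in replicate 1 and 81.0% in replicate 2, and for Ifnar1 49.7% and 44.4%. Ifngr1 had 46.0% in replicate 1 and 33.2% in replicate 2, Ifngr2 14.6% and 24.4%, and Usp18 12.8% and 13.2%. The median over 7675 protein-coding genes with such isoforms was 31.0% in replicate 1 and 33.7% in replicate 2. Uba7 and Herc6, 2 of the 6 genes, had at least 50% in both libraries, as had 21.0% of those 7675 genes. In the quantification from the reads 5 of the 6 had, all except Usp18, against 37.2% of genes.

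**Figure D4:**
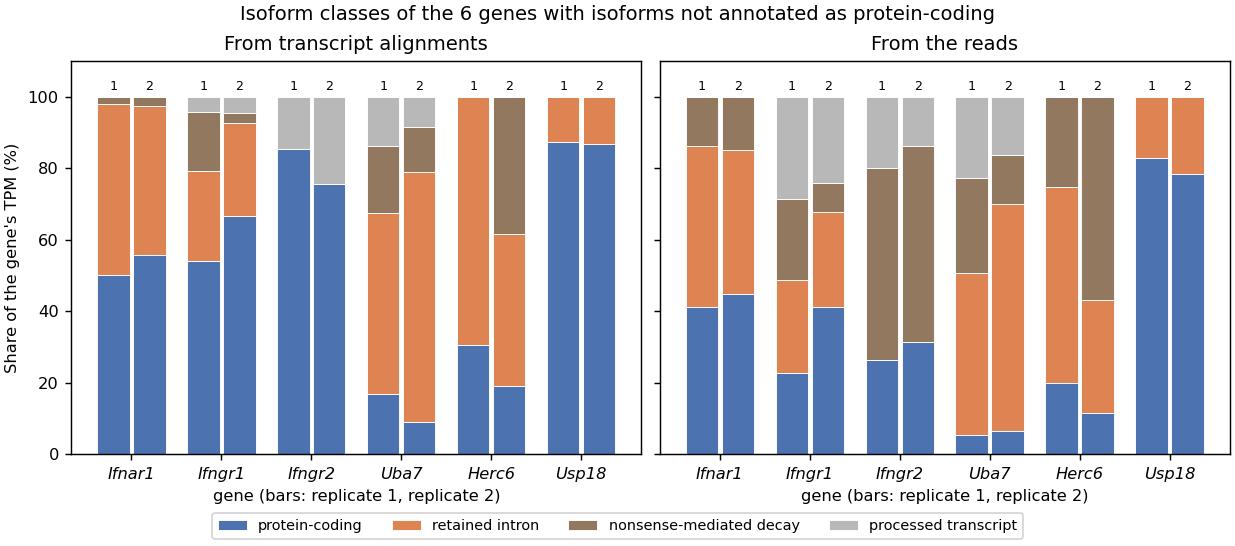
Share of each gene's TPM (percent, bars from 0 to 100) by annotated isoform class, in replicate 1 and replicate 2, from transcript alignments (left) and from the reads (right). Uba7 and Herc6 have the smallest protein-coding shares on the left, and that of Ifngr2 is 85.4% and 75.6% on the left but 26.3% and 31.4% on the right.

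For Herc6 the leading isoforms were a long stretch of intron in replicate 1 and a short isoform in replicate 2. Herc6-202, a single exon of 4378 nt with 93.2% of its bases in introns of the coding isoform Herc6-201, took 51.4% of the gene's TPM in replicate 1, and 27.5% in replicate 2, on 811 and 1218 expected counts. Herc6-203, of 449 nt and annotated for nonsense-mediated decay, held 0% in replicate 1 and 38.3% in replicate 2, on 0 and 106 counts. From the reads it held 25.4% and 56.9%, on 48.3 and 280 estimated counts, so the quantifications differed on whether replicate 1 contained it. Herc6-201 held 30.7% in replicate 1 and 19.0% in replicate 2. The retained-intron isoforms Herc6-204 and Herc6-205 held 7.0% and 10.9% in replicate 1, and 7.2% and 4.4% in replicate 2.

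The borders of the introns that Herc6-202 keeps are shown because reads across them are what an unspliced Herc6 RNA would give. Each line has 20 bases on either side of a border of introns 7 and 8 of Herc6-201, from the annotated transcript on mm10, plus strand, with the first or last 2 bases of the intron in capitals. They lie at chr6:57607159-57607198, chr6:57607614-57607653, chr6:57607688-57607727 and chr6:57610783-57610822. Intron 7 is 455 nt long and intron 8 is 3095 nt.
Herc6 intron 7 donor: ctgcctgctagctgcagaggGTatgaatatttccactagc
Herc6 intron 7 acceptor: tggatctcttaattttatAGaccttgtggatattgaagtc
Herc6 intron 8 donor: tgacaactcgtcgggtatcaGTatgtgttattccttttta
Herc6 intron 8 acceptor: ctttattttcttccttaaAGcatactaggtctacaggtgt

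Ifnar1 was divided nearly evenly between its coding isoform and an intronic one. Ifnar1-201 took 49.8% of the gene's TPM in replicate 1, and 53.8% in replicate 2. Ifnar1-205, a retained-intron isoform of 2234 nt with 88.2% of its bases in intron 2 of Ifnar1-201, held 47.6% in replicate 1 and 41.9% in replicate 2. From the reads Ifnar1-205 held 45.0% and 40.2%, so its share was similar in both quantifications. Ifnar1-203, annotated for nonsense-mediated decay, held 2.1% and 2.5% from alignments but 13.7% and 14.9% from the reads. The further coding isoforms Ifnar1-202 and Ifnar1-204 held under 2% in each.

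Ifnar2 showed a mixture of a long and a short coding isoform. Ifnar2-201, with a coding sequence of 513 codons, took 45.5% of the gene's TPM in replicate 1, and 44.0% in replicate 2. Ifnar2-203, which runs past the end of exon 7 into intron 7 and has 248 codons, held 32.1% in replicate 1 and 32.0% in replicate 2. The mouse gene is known to encode a membrane-spanning receptor and, by alternative splicing, a soluble one. Ifnar2-203 holds 127 nt of intron 7, and whether its share stems from a soluble form or from unspliced RNA was not tested. Ifnar2-205, a fragment of 384 nt, held 17.7% and 18.8% on only 21.6 and 51.9 expected counts. From the reads Ifnar2-203 led instead, with 39.4% and 44.0%, ahead of Ifnar2-201 with 36.5% and 32.9%. Ifnar2-204 and Ifnar2-202 held under 5% of TPM in each library and quantification.

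The borders at which Ifnar1-205 and Ifnar2-203 leave the splicing pattern of the long coding isoforms are shown in the same way, each with the intron's first 2 bases in capitals. They lie on mm10, plus strand, at chr16:91489800-91489839 and chr16:91393894-91393933.
Ifnar1 intron 2 donor: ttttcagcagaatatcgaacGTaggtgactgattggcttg
Ifnar2 intron 7 donor: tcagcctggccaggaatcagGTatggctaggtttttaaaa

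**Figure D5:**
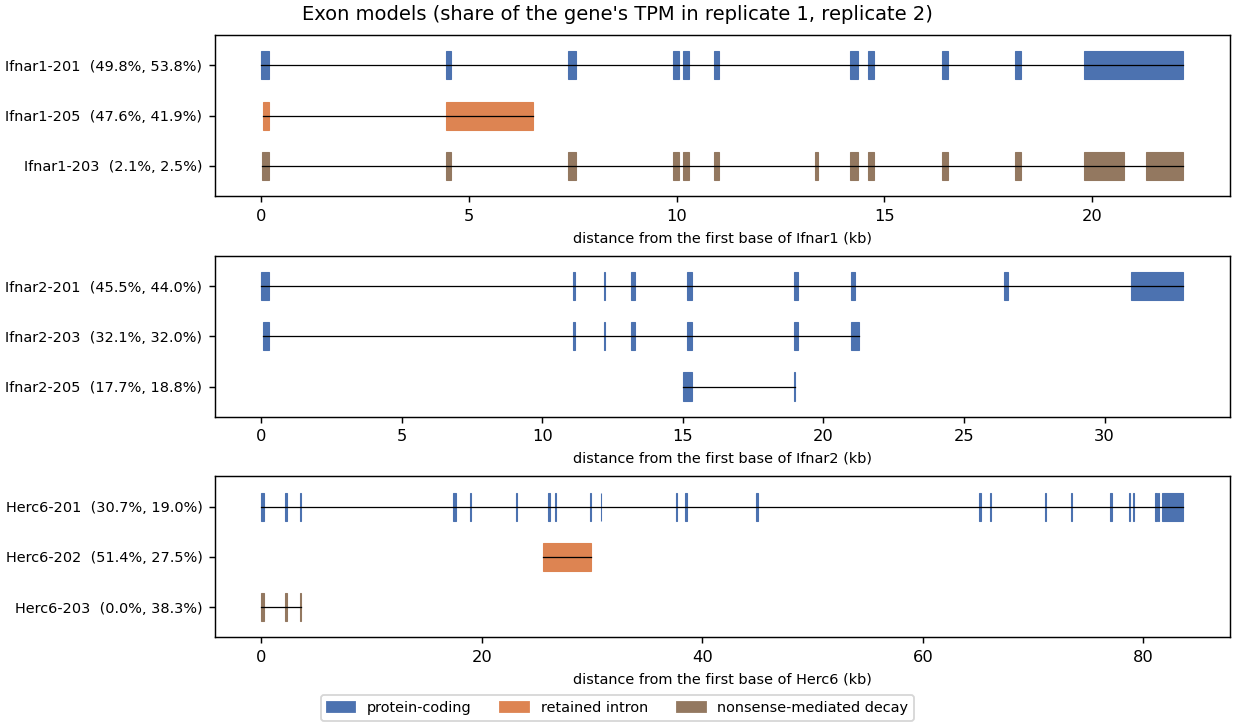
Exons (boxes) of isoforms of Ifnar1, Ifnar2 and Herc6 by distance in kb from the first base of each gene, coloured by annotated class, with the share of the gene's TPM in replicate 1 and replicate 2 beside each name. Ifnar1-205 and Herc6-202 each consist mainly of intron sequence, and Herc6-203 covers only the start of the gene.

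For the type II receptor the isoform split depended on the quantification. Ifngr1-201, its single protein-coding isoform, took 54.0% of the gene's TPM in replicate 1, and 66.8% in replicate 2, but 22.9% and 41.3% from the reads. Of its other isoforms, the retained-intron Ifngr1-202 held 18.4% in replicate 1 and 21.2% in replicate 2, and Ifngr1-203, annotated for nonsense-mediated decay, 16.4% and 2.6%. Ifngr1-204, Ifngr1-205 and Ifngr1-206 each held under 7% in the alignments, but Ifngr1-205 had 24.8% and 16.1% from the reads. Ifngr2-201, the single coding isoform of Ifngr2, held 85.4% in replicate 1 and 75.6% in replicate 2, but 26.3% and 31.4% from the reads. There Ifngr2-202, a fragment of 534 nt annotated for nonsense-mediated decay, held 53.9% and 54.9%, while the alignments gave it 0%. Ifngr2-203, a processed transcript, held the remaining 14.6% in replicate 1 and 24.4% in replicate 2 of the alignments. Usp18-201 held 81.8% in replicate 1 and 81.1% in replicate 2, and led in both libraries and quantifications, as did Ifnb1-201 and Isg15-201. Its other isoforms, Usp18-202, Usp18-203 and Usp18-204, each rested on fewer than 6 expected counts in either library.

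All 18 listed genes of the pathway from TLR4 to Ifnb1 reached 1 TPM in both libraries, beside 38.8% of protein-coding genes. Their median was 37.5 TPM in replicate 1 and 30.9 TPM in replicate 2. The highest were Cd14, the co-receptor that hands lipopolysaccharide to TLR4, at 575 and 391 TPM, and Tank, a scaffold of the kinase TBK1, at 373 and 204 TPM. The lowest were Ticam1, which encodes the adaptor TRIF, at 11.8 and 8.65 TPM, and the ubiquitin ligase Traf3 at 5.59 and 4.83 TPM. Of these 18 genes, 11 had a log2 replicate ratio above the median of all genes. That share is near the 52.6% of the 9160 protein-coding genes with a mean TPM of 1 or more.

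All 12 listed genes of signalling below the receptors likewise reached 1 TPM in both libraries, beside the same 38.8% of protein-coding genes. Their median was 27.7 TPM in replicate 1 and 18.6 TPM in replicate 2. The highest were Socs3, a feedback inhibitor known for cytokine receptors that use STAT3, at 148 and 156 TPM, and the kinase Jak1 at 54.9 and 41.1 TPM. The lowest were the phosphatase Ptpn11 at 10.5 and 7.68 TPM, and Socs1, the feedback inhibitor known for interferon receptors, at 1.00 and 1.10 TPM. Of the 12 genes, 10 had a log2 replicate ratio above the median of all genes. So had 52.6% of the 9160 protein-coding genes with a mean TPM of 1 or more. From transcript alignments Usp18 and Socs1, both known as brakes on interferon receptors, were each under 6 TPM in both libraries. The receptor chains Ifnar1 and Ifnar2 were each over 40 TPM there as gene TPM, and Socs3 was above both chains. From the reads Ifnar1 had 51.1 and 11.5 TPM, Ifnar2 46.9 and 11.2, Usp18 4.97 and 1.69, and Socs1 0.684 and 0.260.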

How the data were processed

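Ribosomal RNA-depleted total RNA of 2 libraries was quantified by the authors. The deposited gene tables and 1 transcript table per library give expected counts with TPM in the layout of RSEM, made from transcript alignments, and further deposited transcript tables hold estimated counts and TPM in the layout of kallisto, made from the reads, per the file headers and readme files. These name mm10 and annotation M21. The sources used here do not give programs, versions or strand settings, so antisense and overlapping genes cannot be separated with certainty. The authors' posterior mean TPM and its bounds were not used.

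Symbols, exons and isoform classes came from GENCODE M21, which held all 55536 gene identifiers. The 26345 rows naming no gene, with 0.504% (replicate 1) and 0.0968% (replicate 2) of expected counts, were left out of CPM. Ratios were centred on the median of genes whose mean TPM was 1 or more. Intervals are exact Poisson at 95%. No test was run, since the 1 group has 2 libraries. The ratio step was tested on simulated data. Python 3.11.15, pandas 2.3.3, NumPy 2.4.6 and SciPy 1.17.1 were used. The genes and lists were chosen with earlier results of these data known. Of each list the 2 highest and 2 lowest genes by mean TPM were named, all in lists of up to 8, together with isoforms of at least 5% of TPM. Alternatives were the other quantification, rescaled TPM, CPM, other filters, another pseudocount and leaving out either library. A further promoter motif that was searched is not reported here.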

Additional observations from a re-analysis of the deposited data

How the results depend on the processing

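The median log2(TPM + 1) of the 9 genes, 5.62, was 4.59 in the quantification from the reads, 7.84 in rescaled TPM and 6.65 as log2(CPM + 1). It ranged from 5.39 to 5.72 with either library left out. The count of genes with at least 50% of TPM in noncoding isoform classes was 2 from transcript alignments and 5 from the reads. Each of the 9 genes reached 1 TPM in the other quantification, in rescaled TPM and in either library alone, and none lay more than 2-fold from the median replicate ratio in either quantification, in CPM, with no filter or against protein-coding genes alone. On the CPM scale and without Herc6-203, both chosen after seeing the data, Herc6 had a replicate ratio of -0.16, against 0.58, and a mean level of 26.5 TPM, against 32.5. The cause was not tested. No paired analysis was possible because there is 1 group. Depth limits Usp18 most, with 88 expected counts in replicate 1, and short isoforms such as Ifnar2-205 rest on fewer.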
